A study of Homo sapiens with 10 samples.

Results

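The 42 genes described here encode proteins of homologous recombination, of the Fanconi anaemia pathway and of the DNA damage checkpoint. They were chosen by name, from a list of 42 symbols, and each symbol matched 1 of the 60623 Ensembl gene IDs in the count files. Polyadenylated RNA was sequenced from A375, an established melanoma line that carries an activating BRAF mutation, 72 h after transfection with small interfering RNA (siRNA). PHF10 is a subunit of PBAF, a nucleosome remodelling complex, and the series asks what part it plays in transcription driven by MYC, a transcription factor of growth and division. Experiment 1 held 4 libraries of cells given siRNA to PHF10 (titled PHF10_total_exp1, where "total" is not explained in the sources used here) and 2 control libraries. Experiment 2 held 2 libraries of cells given siRNA to MYC and 2 control libraries of its own. The labels disagree on the controls: the protocol describes a control siRNA, and the field for the siRNA of these samples gives no treatment. All 10 libraries thus share the cell line and the time, and the siRNA is the labelled difference within an experiment. The labels do not say whether replicates were separate cultures, so p-values reflect only how far these samples differ from each other, possibly for technical reasons alone.

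Homologous recombination copies a broken stretch of DNA from the sister chromatid. Nucleases first resect the broken ends, BRCA1 with BARD1 and then PALB2 and BRCA2 prepare the single strand for exchange with the sister, and the joined molecules are later dissolved or cut apart. The Fanconi pathway unhooks crosslinks between DNA strands: its core complex attaches ubiquitin to FANCD2 and FANCI, and recombination completes the repair. The kinases ATM and ATR sense breaks and stalled forks and signal through CHEK2 and CHEK1. Many of these genes are transcribed mainly in dividing cells, under E2F factors, as DNA replication begins.

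The sequences upstream of the genes with the smallest p after PHF10 knockdown, RAD54L, BRCA1, RAD51AP1 and RMI1, are shown first. These 4 genes were chosen by p and not by motif, and each has a match to an E2F motif there. Sequences are from the RefSeq promoter table (GRCh38.p14), 5′ to 3′ on the strand of the gene, and positions count back from the annotated start, whose preceding base is −1. For RAD54L the whole 250 bases before the start are printed (chr1:46247438-46247687, plus strand), which hold no annotated exon. In the upstream windows of the other 3 genes some bases are exons of longer transcripts, so only the E2F match nearest the start is printed, with 10 bases on each side: BRCA1 at chr17:43125395-43125421 (minus strand), RAD51AP1 at chr12:4538859-4538885 (plus strand) and RMI1 at chr9:83980775-83980801 (plus strand). Capitals mark the E2F match and, in RAD54L, also the CCAAT match (ATTGG on this strand).
RAD54L: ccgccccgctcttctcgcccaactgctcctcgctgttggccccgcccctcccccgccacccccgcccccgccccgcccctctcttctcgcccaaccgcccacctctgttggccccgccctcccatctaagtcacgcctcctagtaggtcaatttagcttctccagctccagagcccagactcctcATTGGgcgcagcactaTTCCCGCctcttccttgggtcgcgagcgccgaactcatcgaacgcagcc
BRCA1: acggaaaagcGCGGGAAttacagataa
RAD51AP1: ctggttttggGCGGGAAttgaaaccgc
RMI1: ggcaaatcggGCGGGAAgaggtaaaaa
The E2F match lay at −49 to −43 in RAD54L, at −47 to −41 in BRCA1, at −21 to −15 in RAD51AP1 and at −20 to −14 in RMI1, which held 3 such matches in its window. It reads TTCCCGC in RAD54L and GCGGGAA, the same letters on the other strand, in the other 3.

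Upstream windows of 250 bases could be searched for 38 of the 42 genes. The others are FANCI, NBN, RAD54B and RMI2. Where a gene had several starts, only that near which most GENCODE v29 transcripts begin was searched. The shares over all promoters count every start of the table, without such a choice. The 2 kinds of share are thus not of like sets, and their difference was not tested. The E2F motif was searched as TTCCCGC and as its variants, which are TTGGCGC and also TTCGCGC and further TTGCCGC, on both strands, and 13 of 38 genes (34.2%) held at least 1 match, against 10.9% of all 35116 promoters of the table. Among the 23 searched genes that fell after PHF10 knockdown 9 held a match, and among the other 15 it was 4. CCAAT, searched on both strands, was present in 17 of 38 genes (44.7%) and in 32.0% of all promoters. The cell cycle homology motif TTTGAA or TTTAAA was present in 6 of 38 (15.8%) and in 21.9% of all promoters. CACGTG, the E-box that MYC with MAX binds, was present in 1 of 38 (2.63%), the gene BRCA2, and in 6.35% of all promoters. ATTGG, the CCAAT letters on the other strand, shares TTGG with the E2F variant TTGGCGC, so both can be found at 1 place, and the other motifs share no such run. A match is only a run of letters, and the absence of one from this window says nothing about binding of the factor.

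The libraries held 20.5 to 38.4 M reads assigned to genes on the strand used, and 18450 genes, all 42 of this group among them, passed the filter on low counts. Levels are given in CPM, counts per 1 M reads after scaling, and a gene is called, or said to have fallen or risen, at an edgeR p under 0.05 after Benjamini-Hochberg adjustment over all genes tested. PHF10 mRNA measured 16.1, 18.0, 15.1 and 15.7 CPM across the PHF10 knockdown libraries and 40.1 and 36.6 CPM across the controls, a log2 difference of −1.24 (SE 0.10; edgeR adjusted p = 0.00106). It measured 124 and 119 CPM with MYC siRNA by label and 124 and 125 CPM without it. MYC mRNA measured 16.7 and 13.3 CPM with MYC siRNA by label and 14.9 and 26.5 CPM without it (log2 fold change −0.46, SE 0.39; edgeR adjusted p = 0.688). Those 2 groups overlap, so the labelled knockdown is not visible in its own target and every direction drawn from that comparison rests on the labels. In experiment 1 MYC measured 12.9, 9.69, 14.6 and 22.0 CPM across the PHF10 knockdown libraries and 20.2 and 32.1 CPM across the controls (edgeR adjusted p = 0.174). The neural crest factor SOX10 measured 528 to 948 CPM and MITF, PAX3, TFAP2A and S100B were detected in every library, whereas the pigment genes MLANA and TYR were at or near 0 and PMEL, DCT and TYRP1 were low. Of the marker lists of other cell types, the epithelial one summed to 274 to 341 CPM in the PHF10 knockdown libraries and to 215 and 236 CPM in their controls, and to 169 and 172 CPM with MYC siRNA by label and 268 and 273 CPM without it, most of it KRT18 (156 to 315 CPM). Over the 10 libraries the endothelial list summed to 8.96 to 204 CPM, most of it KDR, the fibroblast list to 22.7 to 77.8 CPM and the immune list to 2.35 to 31.3 CPM, most of it LYZ. The defining markers PTPRC, CD3E and CDH1 were at or near 0 in every library. The part of these lists in the results was not tested. Replicates spread far more in experiment 1 than in experiment 2, with a biological coefficient of variation of 26.7% and 3.39% when each was fitted alone, against 21.4% for all 10 libraries. Type I interferon genes split experiment 1 across its groups: their summed level was 9040 and 7132 CPM in PHF10 knockdown replicates 1 and 2 and 12610 CPM in control replicate 1, against 418.5 and 1006 CPM in PHF10 knockdown replicates 3 and 4 and 980.4 CPM in control replicate 2. The share of reads that met no annotated gene on the strand used ran with that split. It was 12.1% to 13.8% in the first 3 libraries and 9.93% to 10.6% in the others.

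After PHF10 knockdown 25 of the 42 genes fell and none rose. Over all genes tested the share called lower was 3.58% and the share called higher 2.75%, and for these genes 59.5% were lower. Of the 42, 38 had a negative log2 fold change, with a median of −0.73 against 0.02 over all genes tested. The values ran from −1.31 for RAD51AP1 to 0.20 for MUS81, and the falls that passed the test took away 25.1% to 59.6% of the control level. By role, the falls comprised 5 of 5 genes of the BRCA1 and BRCA2 complexes, 5 of 8 strand exchange factors, 4 of 8 Fanconi core genes, both genes of the FANCD2-FANCI pair, 1 of 4 end resection genes, 5 of 7 genes of dissolution and cleavage, 1 of 5 checkpoint genes and 2 of 3 genes of mismatch repair and theta-mediated joining. In bulk RNA, fewer cells of a type and less RNA per cell cannot be told apart. The 4 knockdown libraries lay below both controls for 33 genes (78.6%), against 13.7% of all genes tested, and above both for 1 (2.38%), against 13.4% of all. Summed over the 42 genes, the level was 1153, 1024, 1088 and 1134 CPM in the PHF10 knockdown libraries and 1674 and 1537 CPM in the controls.

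The number of calls depends on the spread shared with experiment 2 and on the 2 controls. With experiment 1 alone edgeR called 3 genes lower, BRCA1, RAD51AP1 and RAD54L (7.14%, against 0.151% of all genes). There 29 of the 42 had an unadjusted p under 0.05, as did 2808 of all 17849 genes tested. Limma voom with a variance for each experiment called 20 (47.6%, against 1.69% of all genes), all of them among the 25, and DESeq2 called 29 (69.0%, against 6.18%), which included the 25. Without control replicate 1 edgeR called 12 (against 0.689% of all genes) and without control replicate 2 it called 16 (against 0.762%). The genes called with any 1 of the 10 libraries left out were BRCA1, RAD51AP1, XRCC2, RAD54L, FANCA, FANCC, FANCI, EXO1, RMI1 and RMI2. Within the part of experiment 1 with high interferon genes the median difference of the 42 genes was −0.77, and in the part with low interferon genes it was −0.64. Each part holds only 1 control library. All 25 genes had a negative difference in both parts, which follows from every knockdown library lying below both controls for these genes. For 22 of them the difference was more negative in the high part.

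**Figure D1:**
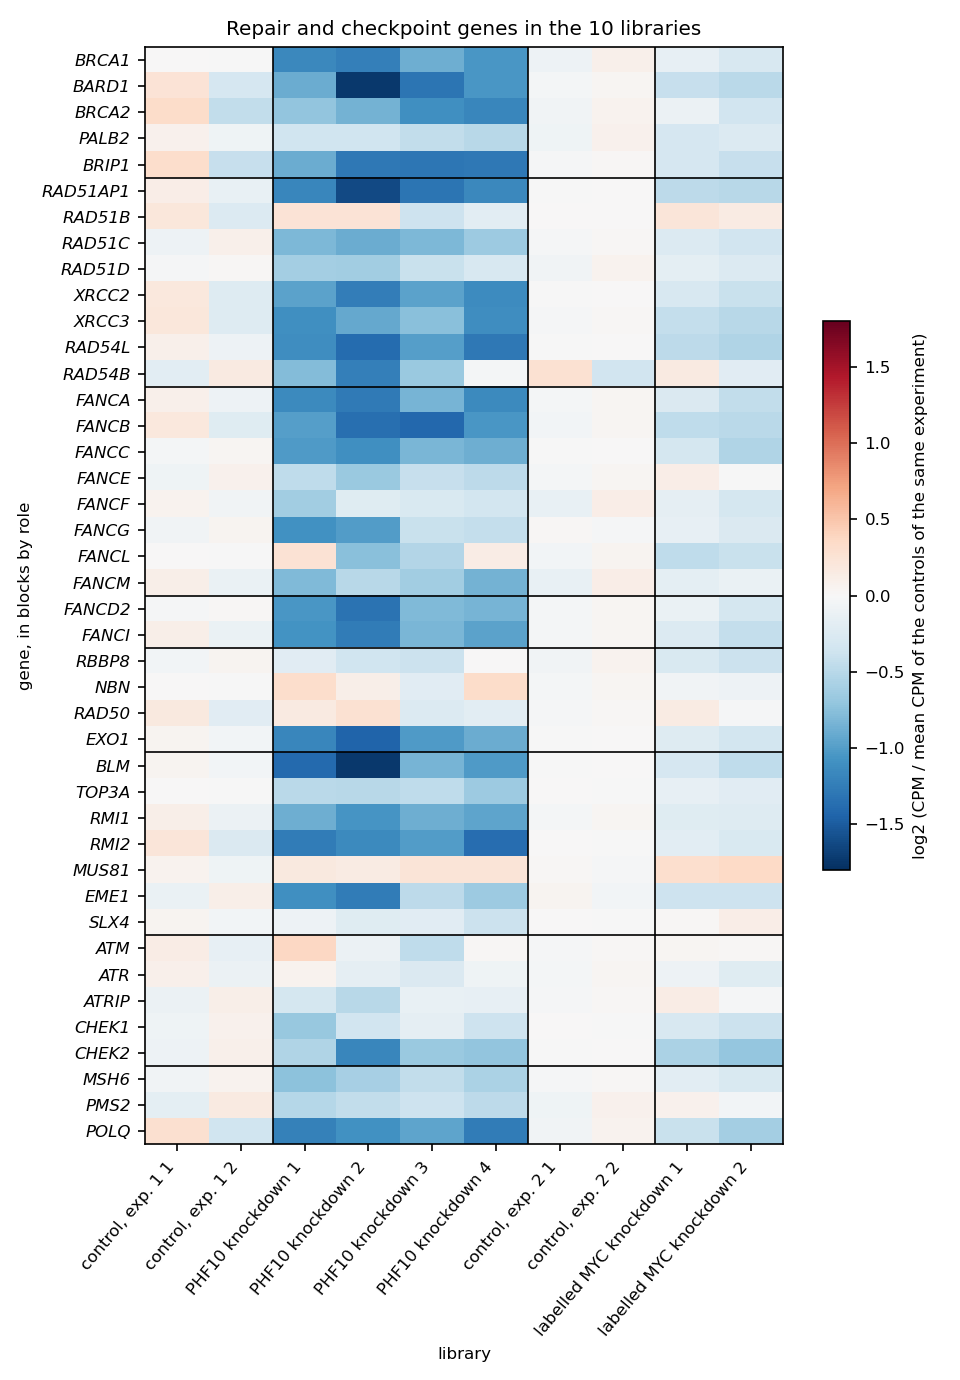
Each of the 42 genes (rows, in blocks by role) in each of the 10 libraries (columns), as log2 of its CPM over the mean CPM of the controls of the same experiment. Blue is lower and red higher; the 4 PHF10 knockdown columns are blue in most rows, and ATM, NBN, RAD50, RAD51B and MUS81 are among the rows that are not.

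All 5 genes of the BRCA1 and BRCA2 complexes fell after PHF10 knockdown, with a median log2 fold change of −1.07. BRCA1 (ENSG00000012048, chromosome 17, 43044295 to 43170245, minus strand), a ubiquitin ligase that promotes resection and recruits PALB2, measured 18.2, 17.4, 22.1 and 19.6 CPM across the PHF10 knockdown libraries and 41.0 and 40.3 CPM across the controls. It fell by 1.07 on the log2 scale (SE 0.12, edgeR adjusted p = 0.00224), and the highest knockdown library reached 22.1 CPM, far under the lower control. BARD1, the obligate partner of BRCA1, measured 5.14, 2.88, 3.85 and 4.60 CPM across the PHF10 knockdown libraries and 11.3 and 7.78 CPM across the controls. It fell by 1.22 on the log2 scale (SE 0.23, edgeR adjusted p = 0.015) without overlap of the groups. BRIP1, the helicase FANCJ that binds BRCA1, measured 16.3, 12.4, 12.2 and 12.3 CPM across the PHF10 knockdown libraries and 37.7 and 22.7 CPM across the controls, so that the controls differed from each other while knockdown replicate 1 stood above the other 3. It fell by 1.18 on the log2 scale (SE 0.19, edgeR adjusted p = 0.00922). Without control replicate 1, the higher control for both, BARD1 had an edgeR adjusted p of 0.128 (log2 fold change −0.93) and BRIP1 one of 0.0750 (−0.78). BRCA2, a mediator of strand exchange, and PALB2, which bridges BRCA1 and BRCA2, had log2 fold changes of −0.95 (edgeR adjusted p = 0.0277) and −0.42 (edgeR adjusted p = 0.045). Both calls were near the threshold: with 1 library left out at a time BRCA2 was called in 3 of 10 fits (adjusted p from 0.0221 to 0.221) and PALB2 in 1 of 10 (0.0445 to 0.238).

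Among the 8 strand exchange factors 5 fell, and the median log2 fold change was −0.87. RAD51AP1 (ENSG00000111247, chromosome 12, 4538798 to 4560048, plus strand), which helps DNA strands to pair, measured 11.4, 8.31, 10.3 and 11.5 CPM across the PHF10 knockdown libraries and 28.1 and 23.4 CPM across the controls. It fell by 1.31 on the log2 scale (SE 0.14, edgeR adjusted p = 0.00224), the largest fall of the 42 genes. RAD54L (ENSG00000085999, chromosome 1, 46247688 to 46278473, plus strand), a motor protein that acts in strand exchange, measured 13.7, 11.4, 15.0 and 12.2 CPM across the PHF10 knockdown libraries and 31.5 and 27.9 CPM across the controls. It fell by 1.18 on the log2 scale (SE 0.13, edgeR adjusted p = 0.00213). XRCC2, which forms a complex with RAD51B, RAD51C and RAD51D, measured 18.8, 15.5, 18.9 and 16.7 CPM across the PHF10 knockdown libraries and 42.1 and 31.5 CPM across the controls. It fell by 1.07 on the log2 scale (SE 0.14, edgeR adjusted p = 0.00389). In each of these 3 genes the knockdown libraries sat close together, and none came near a control. RAD51C and XRCC3, which bind each other, fell as well, by 0.79 and 0.96 on the log2 scale (edgeR adjusted p = 0.00572 and 0.00769). RAD51C lost its call without control replicate 2 (log2 fold change −0.69, adjusted p = 0.0644), and XRCC3 lost it without control replicate 1 (−0.73, 0.0742). RAD51D, with −0.47 (edgeR adjusted p = 0.0588), lay just outside the threshold although its groups did not overlap. RAD54B and RAD51B, the 2 genes of the 42 with the lowest level per length, measured 0.851 to 1.95 and 2.45 to 3.77 CPM in the knockdown libraries and overlapped their controls. In GENCODE v29 most exon bases of RAD54B (59.1%) are shared with FSBP on the same strand, and 8.01% of those of RAD51D with a readthrough gene. If the annotation behind the counts holds these genes, reads there cannot be given to 1 gene, so the values of RAD54B and RAD51D are uncertain.

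In the Fanconi core complex and its DNA anchor FANCM 4 of 8 genes fell, and all 8 fold changes were negative (median −0.69). FANCA, the largest core subunit, measured 21.1, 19.2, 26.0 and 20.9 CPM across the PHF10 knockdown libraries and 49.2 and 43.6 CPM across the controls. It fell by 1.09 on the log2 scale (SE 0.13, edgeR adjusted p = 0.00329). FANCC, a core subunit that binds FANCE and FANCF, measured 10.5, 9.85, 12.0 and 11.5 CPM across the PHF10 knockdown libraries and 20.7 and 21.7 CPM across the controls. It fell by 0.95 on the log2 scale (SE 0.12, edgeR adjusted p = 0.00396). FANCB, which forms a subcomplex with the ligase FANCL, measured 8.23, 6.36, 6.15 and 7.90 CPM across the PHF10 knockdown libraries and 18.7 and 14.0 CPM across the controls. It fell by 1.19 on the log2 scale (SE 0.16, edgeR adjusted p = 0.00537), a call that control replicate 1 carried (−0.98, adjusted p = 0.0558 without it). The groups of FANCA, FANCB and FANCC did not overlap. FANCM, a translocase, had −0.69 (edgeR adjusted p = 0.023), and lost its call without either control of experiment 1 (0.164 without replicate 1 and 0.0855 without replicate 2) and without either library labelled MYC knockdown. FANCE, FANCF and FANCG did not pass, with −0.50, −0.35 and −0.70 (edgeR adjusted p = 0.0664, 0.21 and 0.0665), though their groups did not overlap.

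FANCL, the ubiquitin ligase of the core complex, stood apart from its partners and was picked out after its values were seen. It measured 48.8, 24.3, 28.4 and 44.6 CPM across the PHF10 knockdown libraries and 41.0 and 40.5 CPM across the controls. Knockdown replicates 1 and 4 lay above both controls and replicates 2 and 3 below, and its log2 fold change was −0.16 (SE 0.25; edgeR adjusted p = 0.764). Among the core genes it had the highest level per length in the controls of experiment 1, at 16.9 FPKM (fragments per kilobase of exon and 1 M reads). Its 2 substrates both fell. FANCI (ENSG00000140525, chromosome 15, 89243949 to 89317261, plus strand) measured 60.6, 53.5, 72.1 and 65.8 CPM across the PHF10 knockdown libraries and 138 and 118 CPM across the controls. It fell by 1.02 on the log2 scale (SE 0.13, edgeR adjusted p = 0.00396). FANCD2 measured 23.1, 19.1, 27.4 and 26.8 CPM across the PHF10 knockdown libraries and 47.0 and 48.4 CPM across the controls. It fell by 0.98 on the log2 scale (SE 0.14, edgeR adjusted p = 0.006). Neither substrate showed overlap between the groups. FANCD2 narrowly lost its call without control replicate 2 (−0.97, adjusted p = 0.0581), and its near-identical pseudogene copies make its value uncertain.

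**Figure D2:**
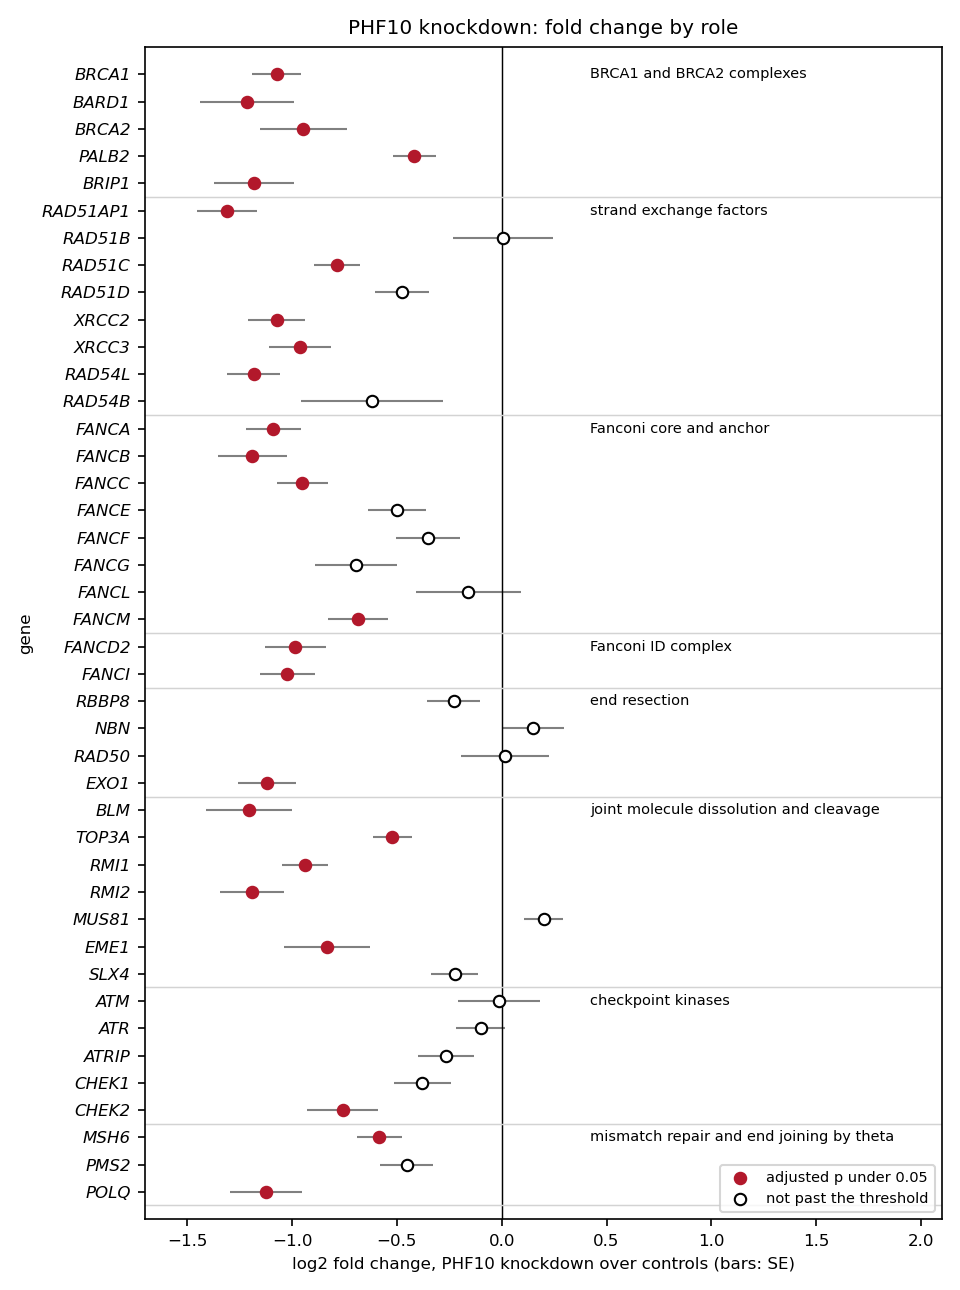
Log2 fold change after PHF10 knockdown for each gene (points; bars are the SE of the fit), in blocks by role from top to bottom. Filled points passed the edgeR test; the 25 of them are all left of 0, and the end resection and checkpoint blocks hold 1 each.

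The 4 end resection genes did not move together, with a median of −0.11 and 1 gene called. EXO1 (ENSG00000174371, chromosome 1, 241847967 to 241895148, plus strand), the exonuclease of long-range resection, measured 23.7, 19.6, 26.3 and 28.6 CPM across the PHF10 knockdown libraries and 54.9 and 51.6 CPM across the controls. It fell by 1.12 on the log2 scale (SE 0.14, edgeR adjusted p = 0.00361). RBBP8 (CtIP), which starts resection, measured 27.1, 24.5, 23.9 and 31.3 CPM across the PHF10 knockdown libraries and 30.3 and 32.4 CPM across the controls, with a log2 fold change of −0.23 (edgeR adjusted p = 0.325) and overlapping groups. NBN, a subunit of the MRE11-RAD50-NBN complex that binds broken ends, measured 96.9, 83.6, 67.8 and 97.8 CPM across the PHF10 knockdown libraries and 78.4 and 77.6 CPM across the controls. Knockdown replicates 1, 2 and 4 of NBN lay above both controls and replicate 3 below, and its log2 fold change was 0.15 (SE 0.15; edgeR adjusted p = 0.593). RAD50, the coiled-coil ATPase of that complex, had 0.02 (edgeR adjusted p = 0.975) and overlapping groups. Its value is uncertain, because in GENCODE v29 79.7% of its exon bases are shared with the same-strand gene AC116366.3. The annotation behind the counts is not known. If it holds that gene, the counted RAD50 level of 3.82 to 5.47 CPM in experiment 1 covers only the rest.

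Of the 7 genes that dissolve or cut joined DNA molecules 5 fell (median −0.83), and 4 of these 5 encode the whole BLM-TOP3A-RMI1-RMI2 complex. RMI1 (ENSG00000178966, chromosome 9, 83980711 to 84004074, plus strand), a scaffold of that complex, measured 12.2, 10.7, 12.1 and 11.5 CPM across the PHF10 knockdown libraries and 23.9 and 20.6 CPM across the controls. It fell by 0.94 on the log2 scale (SE 0.11, edgeR adjusted p = 0.00297). RMI2, its small partner, measured 9.53, 10.3, 11.4 and 8.81 CPM across the PHF10 knockdown libraries and 26.7 and 19.1 CPM across the controls. It fell by 1.19 on the log2 scale (SE 0.15, edgeR adjusted p = 0.00396). BLM, the helicase that drives the joints together, measured 9.44, 7.42, 13.9 and 12.2 CPM across the PHF10 knockdown libraries and 25.5 and 24.0 CPM across the controls. It fell by 1.21 on the log2 scale (SE 0.21, edgeR adjusted p = 0.0116). All 3 genes showed 4 knockdown libraries under both controls, with the lowest BLM values in replicates 1 and 2. TOP3A, the topoisomerase of the complex, fell less, by 0.52 (SE 0.09; edgeR adjusted p = 0.0138), from 103 CPM in both controls. BLM and TOP3A lost their calls without either control of experiment 1, with adjusted p between 0.0739 and 0.102 and log2 fold changes between −1.25 and −0.53. EME1, the partner of the nuclease MUS81, had −0.83 (edgeR adjusted p = 0.0442), and was called in 1 of 10 fits with a library left out (adjusted p from 0.0185 to 0.275). MUS81 itself measured 44.5, 43.4, 46.2 and 46.2 CPM across the PHF10 knockdown libraries and 41.1 and 37.3 CPM across the controls. It was the 1 gene of the 42 with every knockdown library above both controls, by 0.20 (SE 0.09; edgeR adjusted p = 0.238), which did not pass. SLX4, the scaffold of the joint-cutting nucleases, had −0.22 (edgeR adjusted p = 0.277).

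Among the checkpoint genes 1 of 5 fell, and the median was −0.27. CHEK2, the effector kinase of ATM, measured 11.1, 7.13, 10.1 and 9.81 CPM across the PHF10 knockdown libraries and 15.1 and 17.1 CPM across the controls. It fell by 0.76 on the log2 scale (SE 0.17, edgeR adjusted p = 0.0299), with all knockdown libraries below the controls. That call was present in 4 of 10 fits with a library left out and lost without any single control or library labelled MYC knockdown (adjusted p from 0.0214 to 0.217), and CHEK2 has near-identical pseudogene copies that can take or lend reads. CHEK1, the effector kinase of ATR, measured 28.3, 35.8, 40.7 and 35.2 CPM across the PHF10 knockdown libraries and 43.0 and 48.0 CPM across the controls, with −0.38 (SE 0.14; edgeR adjusted p = 0.135) and no overlap. ATRIP, the partner of ATR, measured 17.9, 15.8, 20.4 and 20.1 CPM across the PHF10 knockdown libraries and 20.7 and 23.9 CPM across the controls, with −0.27 (edgeR adjusted p = 0.277). Of its exon bases 27.9% are shared with TREX1. ATM and ATR, the sensor kinases, had log2 fold changes of −0.01 and −0.10 (SE 0.19 and 0.12; edgeR adjusted p = 0.98 and 0.658). ATM varied widely within the knockdown group, from 98.1 CPM in replicate 3 to 174 CPM in replicate 1, around controls of 148 and 121 CPM. ATR ranged only from 75.6 to 94.1 CPM there and overlapped its controls.

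POLQ, the polymerase of theta-mediated end joining, a pathway that uses resected ends, measured 15.3, 16.7, 18.4 and 14.8 CPM across the PHF10 knockdown libraries and 43.5 and 27.6 CPM across the controls. It fell by 1.12 on the log2 scale (SE 0.17, edgeR adjusted p = 0.00777), without overlap, and without control replicate 1 its value was −0.77 (adjusted p = 0.0648). MSH6, a subunit that recognises mismatches, measured 84.6, 93.8, 104 and 95.0 CPM across the PHF10 knockdown libraries and 136 and 147 CPM across the controls. It fell by 0.58 on the log2 scale (SE 0.11, edgeR adjusted p = 0.0142). Without control replicate 1 or 2 MSH6 had an adjusted p of 0.0682 or 0.130. PMS2, the endonuclease subunit of mismatch repair, measured 13.8, 14.5, 15.2 and 14.2 CPM across the PHF10 knockdown libraries and 17.5 and 22.0 CPM across the controls. Its log2 fold change of −0.45 did not pass (edgeR adjusted p = 0.0636), its groups did not overlap, and pseudogene copies make it uncertain.

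**Figure D3:**
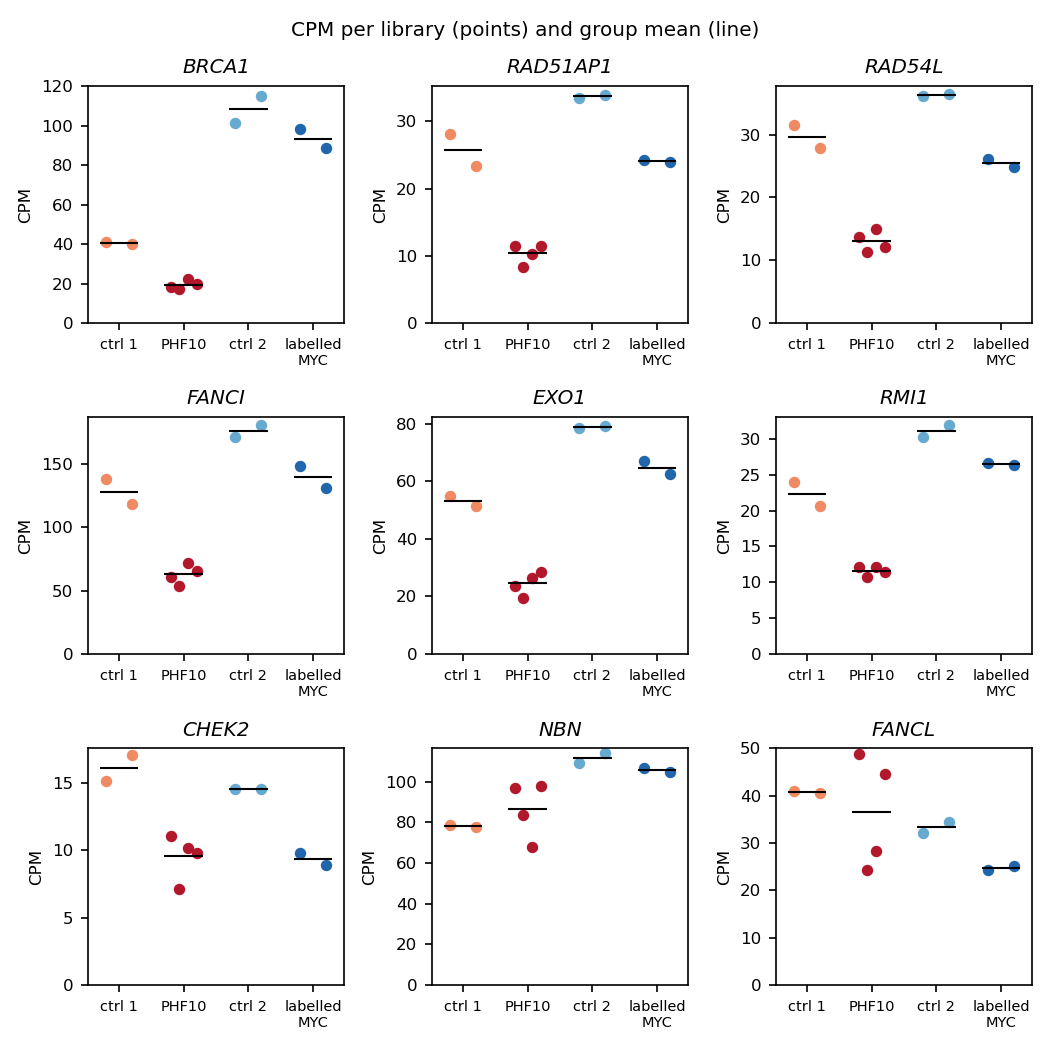
CPM of 9 genes in the controls of experiment 1 (ctrl 1), PHF10 knockdown, the controls of experiment 2 (ctrl 2) and the libraries labelled MYC knockdown; points are libraries, lines group means, and each axis starts at 0. BRCA1, RAD51AP1, RAD54L, FANCI, EXO1, RMI1 and CHEK2 lie below their controls in both comparisons, while NBN and FANCL overlap them after PHF10 knockdown.

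The other genes of these pathways were counted in the same way. Of 48 tested further genes of recombination, the Fanconi pathway and the checkpoint 12 fell and none rose (25.0%, against 3.58% of all genes), with a median of −0.35. With experiment 1 alone edgeR called 1 of 47 tested, limma voom called 5 and DESeq2 called 18, all lower. Of all genes 0.151%, 1.69% and 6.18% were called lower by these fits in turn. The 3 with the smallest p were CLSPN, the adaptor through which ATR activates CHEK1 (log2 fold change −1.33, SE 0.13, edgeR adjusted p = 0.00202), UHRF1, a factor of replicated chromatin (−1.16, 0.14, 0.00352), and UBE2T, the conjugating enzyme that works with FANCL (−0.74, 0.13, 0.0134). In non-homologous end joining, which seals breaks without a template, none of 11 tested genes passed by edgeR, and none had an unadjusted p under 0.05 either. Limma voom called 0 and DESeq2 called 0, with 0 and 1 at an unadjusted p under 0.05. Its median was −0.09, and PRKDC, its kinase, had −0.36 (SE 0.18; edgeR adjusted p = 0.256). The difference between these lists was not tested.

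Markers of dividing cells were counted beside the repair genes. Of 10 proliferation markers all had negative fold changes (median −0.85) and 3 fell, against 3.58% of all genes: CDK1 (−1.08, edgeR adjusted p = 0.0153), MKI67 (−1.24, 0.0162) and CCNA2 (−1.01, 0.0304). With experiment 1 alone edgeR called 0 of the 10, and 7 had an unadjusted p under 0.05, as did 2808 of all 17849 genes tested. Limma voom called 3 (1.69% of all genes were lower) and DESeq2 called 6 (6.18%). The summed level of the markers was 575.5, 650.5, 1118 and 853.1 CPM in the PHF10 knockdown libraries against 1209 and 1721 CPM in the controls, with no marker at 0. Knockdown replicates 1 and 2 had the lowest sums and also the high interferon genes. The part of dividing cells in the falls of the repair genes was not tested. All 19 interferon genes were negative (median −0.58), but none was called by edgeR, limma voom or DESeq2, and by each of these 0 had an unadjusted p under 0.05. In edgeR, with the interferon part as a term in the model 29 of the 42 repair genes were lower, against 7.56% of all genes.

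In the libraries labelled MYC knockdown the median log2 fold change of the 42 genes was smaller in size than after PHF10 knockdown (−0.73). How many genes are called depends on which spread is used. With each experiment fitted alone, edgeR called more of the 42 here than after PHF10 knockdown. With the spread of all 10 libraries edgeR called none of the 42 (0.211% of all genes were called lower and 0.282% higher). Of the 42, 12 had an unadjusted p under 0.05, as did 2435 of all 18450 genes tested. DESeq2 called 1, RAD54L (2.38%, against 1.97% of all genes). With experiment 2 alone, where replicates nearly coincided, edgeR called 30 lower (71.4%, against 22.6% of all genes) and 1 higher, MUS81 (against 21.9%). Limma voom with a variance for each experiment called 26 lower (61.9%, against 16.7%) and MUS81 higher (against 15.8%). The median over the 42 genes was −0.23, against −0.01 over all genes tested, and 34 were negative. Both labelled libraries lay below both controls for 32 genes (76.2%, against 36.0% of all genes) and above both for MUS81, RAD51B and SLX4 (7.14%, against 33.6%). Fitted with 2 libraries a group and 2 residual degrees of freedom, the calls of experiment 2 alone measure the spread between these 4 libraries only.

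CHEK2 had the lowest value in this comparison. It measured 9.80 and 8.93 CPM with MYC siRNA by label and 14.5 and 14.5 CPM without it, a log2 difference of −0.63 (SE 0.20; edgeR adjusted p = 0.199 with all libraries and 5.5e-07 with experiment 2 alone). RAD54L measured 26.2 and 24.9 CPM with MYC siRNA by label and 36.2 and 36.5 CPM without it, with −0.51 (SE 0.15; edgeR adjusted p = 0.169 and 7.4e-09). RAD51AP1 measured 24.3 and 23.9 CPM with MYC siRNA by label and 33.5 and 34.0 CPM without it, with −0.49 (edgeR adjusted p = 0.246 and 3.7e-08). In all 3 the labelled libraries were close to each other and clear of the controls. BRCA1 measured 98.2 and 88.9 CPM with MYC siRNA by label and 102 and 115 CPM without it, with −0.21 (SE 0.14; edgeR adjusted p = 0.572 and 0.00694). MUS81 measured 59.2 and 61.7 CPM with MYC siRNA by label and 49.0 and 47.2 CPM without it, with 0.33 (edgeR adjusted p = 0.206 and 5.8e-07). FANCL, which did not separate after PHF10 knockdown, measured 24.3 and 25.1 CPM with MYC siRNA by label and 32.1 and 34.5 CPM without it (−0.43; edgeR adjusted p = 0.593 and 7.1e-07). ATM, NBN and RAD50 had log2 fold changes of 0.03, −0.08 and 0.06 and passed neither test. CHEK1 measured 72.1 and 67.6 CPM with MYC siRNA by label and 88.6 and 87.4 CPM without it (−0.33; edgeR adjusted p = 0.406 and 2.5e-07). The 10 proliferation markers were all negative here as well (median −0.40), and summed to 1855 and 1744 CPM against 2284 and 2417 CPM. With all libraries edgeR called 0 of them, and 1 had an unadjusted p under 0.05, as did 2435 of all 18450 genes tested. With experiment 2 alone it called all 10 lower, against 22.6% of all genes. The part of these markers in the result was not tested.

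The 2 responses have separate controls and can be set side by side. All 25 genes that fell after PHF10 knockdown were also negative in the libraries labelled MYC knockdown, between −0.63 and −0.15. With experiment 2 alone 24 of them, all but FANCM, were called lower there, against 22.6% of all genes. For each of the 25 the fall after PHF10 knockdown was the larger number, but these genes were chosen by that fall. Of all 42 genes, 35 had the larger absolute log2 fold change after PHF10 knockdown. The test of the difference between the responses, the interaction of knockdown and experiment, called none of the 42 by edgeR (0.385% of all genes in either direction). At an unadjusted p under 0.05 there were 2157 of all 18450 genes tested and 21 of the 42. The smallest adjusted p was 0.0763, for BRCA1, whose difference was −0.86 (SE 0.18). DESeq2 called 6 (BRCA1, RAD51AP1, FANCA, EXO1, RMI1 and RMI2, between −0.96 and −0.70; 1.46% of all genes were lower), limma voom called 4 (BRCA1, RAD51AP1, EXO1 and RMI2; 1.06% of all genes), and edgeR without the low-count filter called 3 (BRCA1, EXO1 and RMI2; 0.844% of all genes). Over the 42 genes the median difference was −0.50, against 0.01 over all genes tested. CHEK2, with −0.13, and CHEK1, with −0.05, were among the genes with nearly equal fold changes in both (SE 0.26 and 0.21), and FANCL was positive at 0.27 (SE 0.38).

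**Figure D4:**
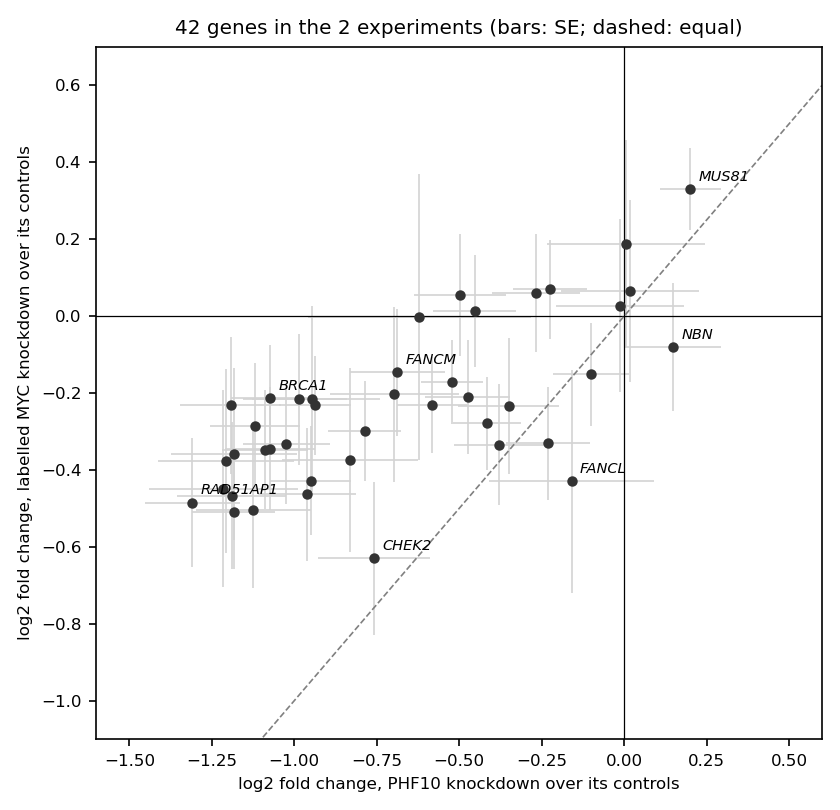
Log2 fold change of each of the 42 genes after PHF10 knockdown (horizontal) and in the libraries labelled MYC knockdown (vertical), each over its own controls; bars are SE of the fit and the dashed line marks equal values. The 25 genes that fell after PHF10 knockdown all lie above the dashed line and below 0 on the vertical axis. They were chosen by their fall on the horizontal axis.

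The same genes differed between the 2 control groups, which share cell line and time but not experiment, so culture, date and library batch cannot be told apart. Of the 42 genes 7 were higher in the controls of experiment 2 (16.7%, against 8.05% of all genes) and none lower (6.60% of all genes), with a median of 0.33. BRCA1 measured 102 and 115 CPM there against 41.0 and 40.3 CPM in the controls of experiment 1, a log2 difference of 1.41 (SE 0.14; edgeR adjusted p = 0.000449). The controls of experiment 2 lay well above every library of experiment 1 for this gene. PHF10 itself measured 124 and 125 CPM in the controls of experiment 2 against 40.1 and 36.6 CPM in those of experiment 1. That is a log2 difference of 1.70 (SE 0.12, edgeR adjusted p = 0.000122), and its part in the difference of the repair genes was not tested. CHEK1 measured 88.6 and 87.4 CPM against 43.0 and 48.0 CPM, a difference of 0.95 (SE 0.16; edgeR adjusted p = 0.00545). BARD1, RBBP8, EXO1, MSH6 and RMI1 were higher by 0.95, 0.63, 0.57, 0.55 and 0.48 (edgeR adjusted p = 0.0389, 0.0217, 0.0453, 0.0202 and 0.0351). With the 4 controls alone 12 genes were higher (28.6%, against 13.7% of all genes), by limma voom 14 (10.6% of all genes) and by DESeq2 15 (11.2%). BRCA1 was called with any 1 library left out. CHEK1 lost its call only without control replicate 1 of experiment 2, where its log2 difference was 0.95. BARD1, RBBP8, EXO1, MSH6 and RMI1 lost their calls without any single control of either experiment, with log2 differences between 0.39 and 1.25. BARD1, EXO1 and RMI1 also lost theirs without either library labelled MYC knockdown. The groups of both experiments' controls did not overlap for 29 genes higher (69.0%, against 34.5% of all genes) and 2 lower (4.76%, against 33.5%). Interferon genes summed to 423.1 and 428.9 CPM in the controls of experiment 2 and to 980.4 and 12610 CPM in those of experiment 1. The 10 proliferation markers had a median of 0.69 in this comparison, with 3 called higher, and summed to 2284 and 2417 CPM against 1209 and 1721 CPM. The part of either list in the difference was not tested.

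Levels between genes were compared per length of exon, as FPKM. In the controls of experiment 1 the median over the 42 genes was 4.78 FPKM, and FANCL (16.9), FANCI (16.5), TOP3A (15.9), EXO1 (12.9) and MSH6 (12.8) were the most abundant. RAD50, RAD51B and RAD54B were the least, at 0.463, 0.424 and 0.378 FPKM, and the first and last of these are the genes with most shared exon bases. In the controls of experiment 2 the median was 6.17 FPKM, and FANCI (22.7), EXO1 (19.1), MSH6 (18.8), TOP3A (18.4) and NBN (18.1) led. BRCA1 went from 4.43 to 11.8 FPKM.

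**Figure D5:**
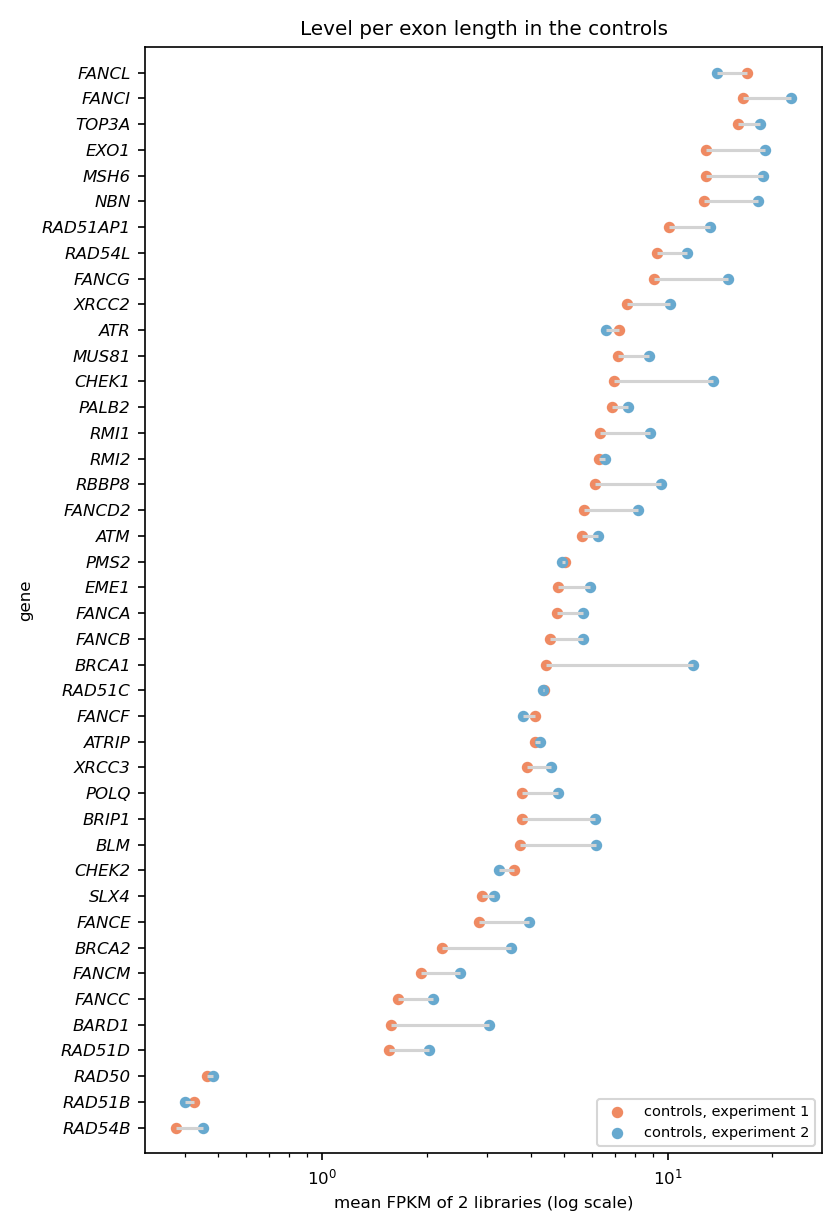
Mean FPKM (log axis) of each gene in the 2 controls of experiment 1 and the 2 controls of experiment 2, ordered by experiment 1; grey lines join the values of a gene. Most genes are higher in experiment 2, with a wide gap for BRCA1 (4.43 and 11.8 FPKM).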

How the data were processed

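Poly(A) RNA of 10 A375 libraries was sequenced with a directional kit as single reads, per the labels' protocols. The authors deposited raw read counts per gene. Per the submitters' processing notes, reads were trimmed with cutadapt, then aligned and counted with STAR on GRCh38.p13 (hg38). Versions of these tools and the annotation behind the counts were not given in the sources used here. Counts of opposite-strand reads were taken, as that column was the larger of the stranded ones in each library. Lines that name no gene (19.1% to 23.6% of reads) were left out of library sizes.

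The test was edgeR 4.0.16 (R 4.3.3), robust quasi-likelihood, with TMM scaling and filterByExpr by group. The 10 libraries formed 4 group means (6 residual degrees of freedom), and genes were called at a Benjamini-Hochberg adjusted p under 0.05 over 18450 genes. SE is the log2 fold change divided by the root of the F statistic. CPM are counts per 1 M reads after TMM scaling, and FPKM divides CPM by the union of GENCODE v29 exons. The interferon parts of experiment 1 were compared on log2 (CPM + 0.1). Alternatives were DESeq2 1.42.0, limma 3.58.1 (voom with a variance for each experiment), other scalings (RLE, upper quartile), other filters (none, or 1 CPM in 4 libraries), unstranded counts, separate fits of the experiments, a replicate block, a term for the interferon part, and the removal of each library in turn. The code was tested on simulated data.

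The members, the role and context lists and the alternatives were chosen with earlier results of these data known. Values per library are given for PHF10 and MYC, for the 3 members of each role with the smallest p after PHF10 knockdown (both where a role has 2) and for the 2 with the largest difference between controls. Up to 3 genes with the smallest p come from each context list. FANCL, MUS81, ATM and the genes named for the libraries labelled MYC knockdown were named after their values were seen. Of 20 interferon symbols 19 matched a gene ID, and SLX1A and NHEJ1 did not pass the filter. Some genes of these lists are not reported here.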

Additional observations from a re-analysis of the deposited data

Results flagged for a closer look

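Among the 4 PHF10 knockdown libraries BRIP1 had 1 sample far from the others. It measured 16.3 CPM in replicate 1 and 12.4, 12.2 and 12.3 CPM in replicates 2 to 4, so the gap from replicate 1 to the nearest other library was 0.939 of the range of the group on the log2 scale (critical value 0.829 for 4 samples). All 42 genes were examined in this group and 1 was marked, and chance marks about 1 in 20 groups.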

How the results depend on the processing

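No direction of a called gene turned under any alternative. The PHF10 comparison (25 members lower, 661 genes lower and 508 higher) gave 3 members, 27 and 23 genes with each experiment alone, 1140 and 1040 genes by DESeq2, 311 and 178 by limma voom, 1237 and 1135 without the filter, and 1394 and 1073 with the interferon part as a term. With 1 library left out it gave 12 to 24 members, 136 to 737 genes lower and 68 to 650 higher. The comparison of the libraries labelled MYC knockdown (39 lower, 52 higher) gave 1 member lower, 364 and 358 genes by DESeq2, 26 members lower and 1 higher, 3085 and 2921 genes by limma voom, 30 members lower and 1 higher, 3954 and 3827 genes with experiment 2 alone, and 458 and 453 genes without the filter. With 1 library left out it gave 0 to 100 lower and 0 to 131 higher. The difference of the responses (23 lower, 48 higher) gave 6 members, 270 and 363 genes by DESeq2, 4 members, 195 and 225 genes by limma voom, 3 members, 333 and 585 genes without the filter, and 1 member, 205 and 284 genes with the interferon part as a term. With 1 library left out it gave 0 to 49 lower and 1 to 91 higher. The control comparison (7 members higher, 1217 genes lower and 1485 higher) gave 15 members by DESeq2, 14 by limma voom, 12 without the filter and 12 members, 1958 and 2371 genes with the controls alone. Upper-quartile factors gave 4 members there, with 1690 lower and 1028 higher, and moved the median of all genes from −0.02 to −0.13 on the log2 scale. With 1 library left out it gave 1 to 11 members, 181 to 1534 lower and 373 to 1894 higher. The cause was not tested in any of these, beyond fewer libraries where one was left out.

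The replicate numbers could not be shown to pair the samples. Only 2 pairs exist per experiment, and deviations from the group means correlated at 0.484 and −0.297 in experiment 1 and at −0.03 in experiment 2. With the replicate block the PHF10 comparison gave 19 members lower, 503 genes lower and 366 higher, the MYC comparison gave 0 and 0 genes, and the difference gave 0 lower and 1 higher.

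Over all alternatives the median log2 fold change of the 42 genes lay between −0.85 and −0.68 after PHF10 knockdown, between −0.32 and −0.21 in the libraries labelled MYC knockdown and between 0.21 and 0.40 between the controls. Depth limits the genes with few reads, such as RAD54B and RAD51B. The control groups of 2 limit every comparison here.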

Other observations

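FANCL was not alone in separating PHF10 knockdown replicates 1 and 4 from 2 and 3. KDR, the VEGF receptor counted among the endothelial markers, measured 198.5, 7.30, 14.4 and 105 CPM in replicates 1 to 4 and 57.7 and 44.8 CPM in the controls, and the melanocyte factor MITF measured 46.7, 21.9, 20.4 and 38.1 CPM and 55.3 and 38.5 CPM. LYZ, an immune marker also present in these cells, measured 29.3, 11.8, 13.1 and 30.4 CPM against 12.4 and 11.7 CPM. FANCL measured 48.8, 24.3, 28.4 and 44.6 CPM in the same order. Other genes of the 42 also had replicates 1 and 4 above 2 and 3, among them NBN, ATM, ATR, RBBP8, FANCB, BARD1 and RAD51AP1. NBN, for instance, measured 96.9, 83.6, 67.8 and 97.8 CPM. The share of all genes with this split was not counted, so it is not shown to be particular to the genes named. These genes were picked after their values were seen, the interferon genes divide the same libraries differently (replicates 1 and 2 from 3 and 4), and no relation between them was tested.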
